A study of Homo sapiens with 18 samples.

Results

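Messenger RNA of 10 human enzymes that handle methionine was followed in 18 libraries of an osteosarcoma cell line: MAT1A, MAT2A, MAT2B, AHCY, MTR, CBS, CTH, MTAP, AMD1 and SRM. They were selected by name, as the rows of the deposited table that carry these symbols, out of 50119 genes listed, and each of the 10 symbols had 1 row. The selection was made with results of these libraries known, so the levels and fold changes of the 10 enzymes are given here as a description, and the edgeR calls quoted for them are not independent evidence. MAT1A is also on the list of shared differentially expressed genes (DEGs) that the study drew from the same libraries. A further list of 80 genes around the pathway was used for the neighbouring steps, and 7 of these were too low to be tested in any comparison.

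All libraries come from 1 established human line, which the labels spell Soas-2 (Saos-2), with the genotype WT, and there are 6 groups of 3 libraries. ALPL, the alkaline phosphatase for which that line is known, was near 0 in all of them. D-2 is flat 2D culture, D-3 is 3D culture of the cells in Matrigel, and DP-3 is 3D cell printed tissue in a bioink of methacrylated gelatin and alginate, all taken on day 14. DP-3 day 1 is the printed tissue on day 1. FIT is fresh tumor grown from the cells, which were implanted in Matrigel under the skin of the axilla of 4-week-old female BALB/c nude mice. It is labelled day 14 and was not cultured. IT is pieces of such tumors kept on Matrigel for 14 days. Excised tumors were divided between IT and FIT, but the labels do not say which pieces shared an animal, and they do not say whether replicates were separate cultures or animals. The p-values then measure the spread between these libraries, which may be partly technical. The tumor host is a mouse, so FIT and IT can hold mouse cells, and how mouse reads were treated is not given in the sources used here.

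Methionine is activated to S-adenosylmethionine (SAM), the methyl donor of the cell, by methionine adenosyltransferases. SAM gives up its methyl group and becomes S-adenosylhomocysteine, which AHCY splits into adenosine and homocysteine. Homocysteine is either turned back into methionine by MTR, with folate and vitamin B12, or passed through CBS and CTH to cysteine, the transsulfuration route that feeds glutathione. A side branch runs from SAM through AMD1 and SRM to the polyamines, and MTAP recovers the sulfur part left over as a start for new methionine. In adults MAT1A is known as the liver form of the activating enzyme and MAT2A as the form of other tissues and of dividing cells.

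The files give an FPKM (fragments scaled by gene length and by library total) and a whole-number estimated count for each gene and library. Total estimated counts ranged from 50327345 to 79082786, except in FIT replicate 3, which had 23721666. The limit of detection was set at 12 estimated counts, which stand for about 3 read pairs, and this limit covers counting error only. FPKM values are means ± SD (n = 3 libraries). Fold changes come from edgeR's quasi-likelihood test on the estimated counts of the 6 libraries compared. A gene was called when its Benjamini-Hochberg adjusted p was below 0.05 and its fold change at least 2. The 4 comparisons with FIT share the same 3 FIT libraries, so their values stand side by side and are not independent. The FPKM carry the authors' scaling by library total, whereas the counts were scaled within edgeR's fit. Over all genes tested, fold changes on log2(FPKM + 0.1) were set against edgeR's on the counts, and the cause of the shift was not tested. The median shift on the log2 scale was -0.26 in DP-3 day 14 against DP-3 day 1, -0.13 in D-2 and -0.11 in DP-3 against FIT. In IT the shift was -0.01, and in D-3 it was 0.06, the other way. In bulk samples like these, fewer cells of a type and less RNA per cell cannot be told apart.

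The 10 enzymes differed widely in how much they moved. The lowest and highest of the 6 group means of log2(FPKM + 0.1) lay 3.65 log2 units apart for MAT1A, 2.85 for CTH and 2.14 for CBS. AMD1 spanned 1.13, and the other 6 spanned 0.46 (MAT2B) to 0.87 (MTR). Of the 50 pairs of an enzyme and a comparison, 5 were called, which were MAT1A in the flat, Matrigel and printed cultures (D-2, D-3, DP-3) and CTH in D-3, all against FIT, and CTH in DP-3 day 14 against DP-3 day 1. The 8 enzymes that were never called had log2 fold changes from -0.94 to 1.22.

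**Figure D1:**
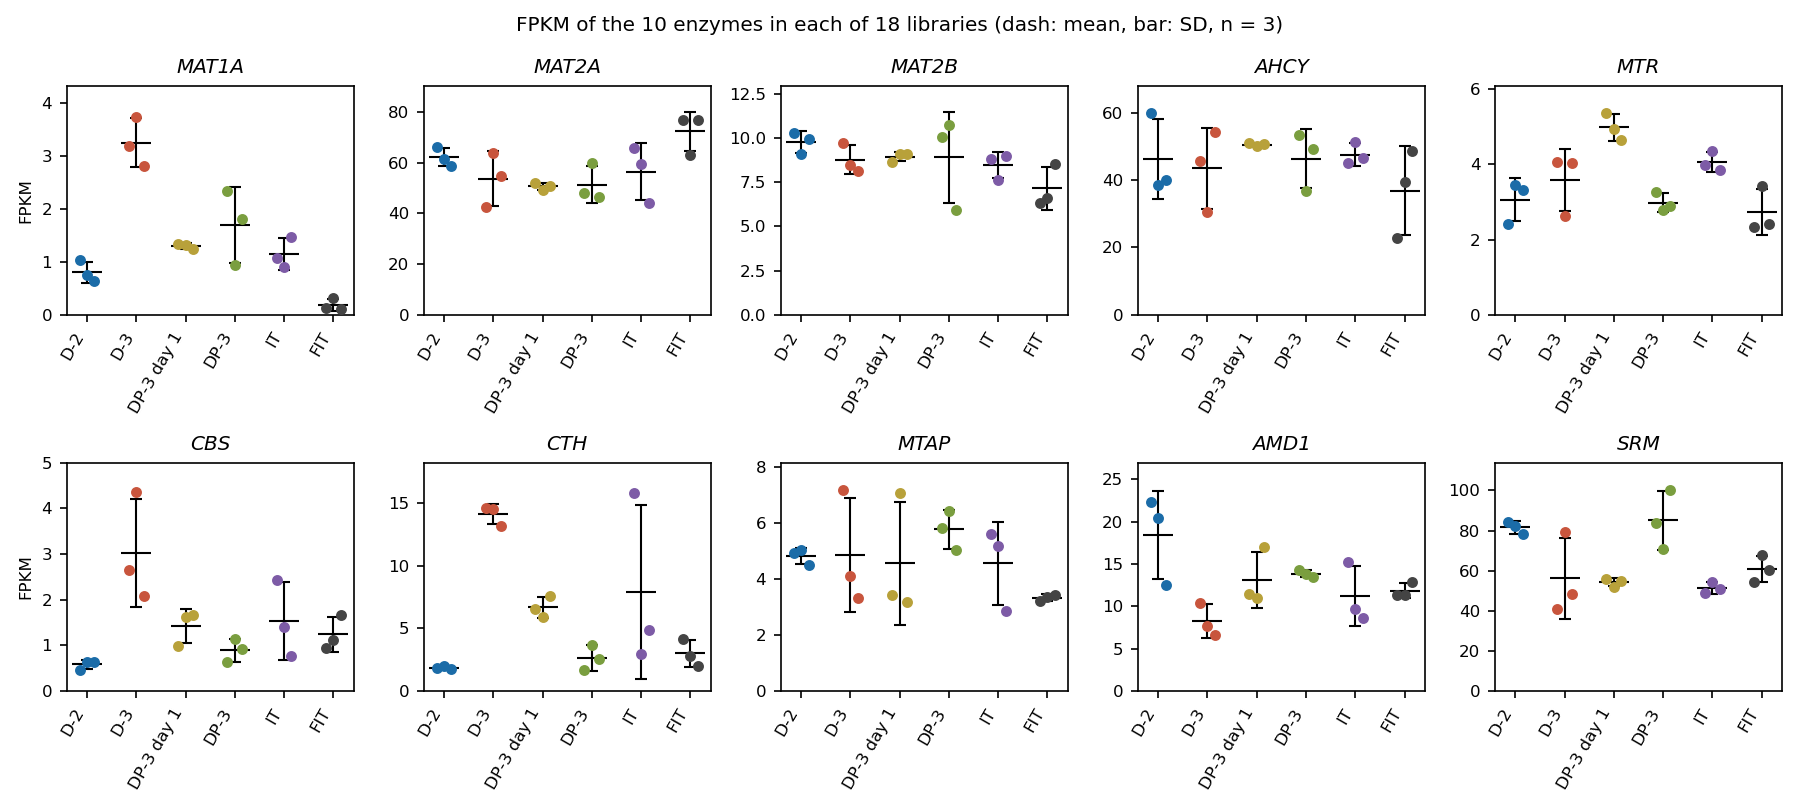
FPKM of the 10 enzymes in every library, 1 panel per gene with its own linear axis from 0. Points are libraries, dashes are group means and bars are SD (n = 3). MAT1A was lowest in the 3 FIT libraries, CTH was highest in D-3 and in IT replicate 1, and MAT2A, MAT2B and AHCY spanned at most 0.52 log2 units between group means.

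The same counts can be set against all genes. In D-2 against FIT, 1 of the 10 enzymes was called higher and 0 lower, where 3.83% of the 19513 genes tested were called higher and 10.8% lower. Libraries of D-2 and FIT did not overlap for 6 of the 10 enzymes and for 49.9% of all genes tested. In D-3, 2 were called higher (4.29% of all genes) and 0 lower (2.17%), and 4 did not overlap (32.4%). In DP-3, 1 was called higher (1.66%) and 0 lower (3.16%), and 5 did not overlap (34.1%). In IT no enzyme was called, and no gene of the whole table was called higher (0.0%) or lower (0.0%) by edgeR's quasi-likelihood test, while 2693 genes had an unadjusted p below 0.05. DESeq2 called 661 genes in IT and limma on log2(FPKM + 0.1) called 12. Libraries of IT and FIT did not overlap for 2 of the 10 enzymes (20.6% of all genes). In DP-3 day 14 against DP-3 day 1, 0 enzymes were called higher (1.81%) and 1 lower (5.76%), and 3 did not overlap (45.2%). Because the enzymes were selected with these values known, nothing is read from these counts.

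**Figure D2:**
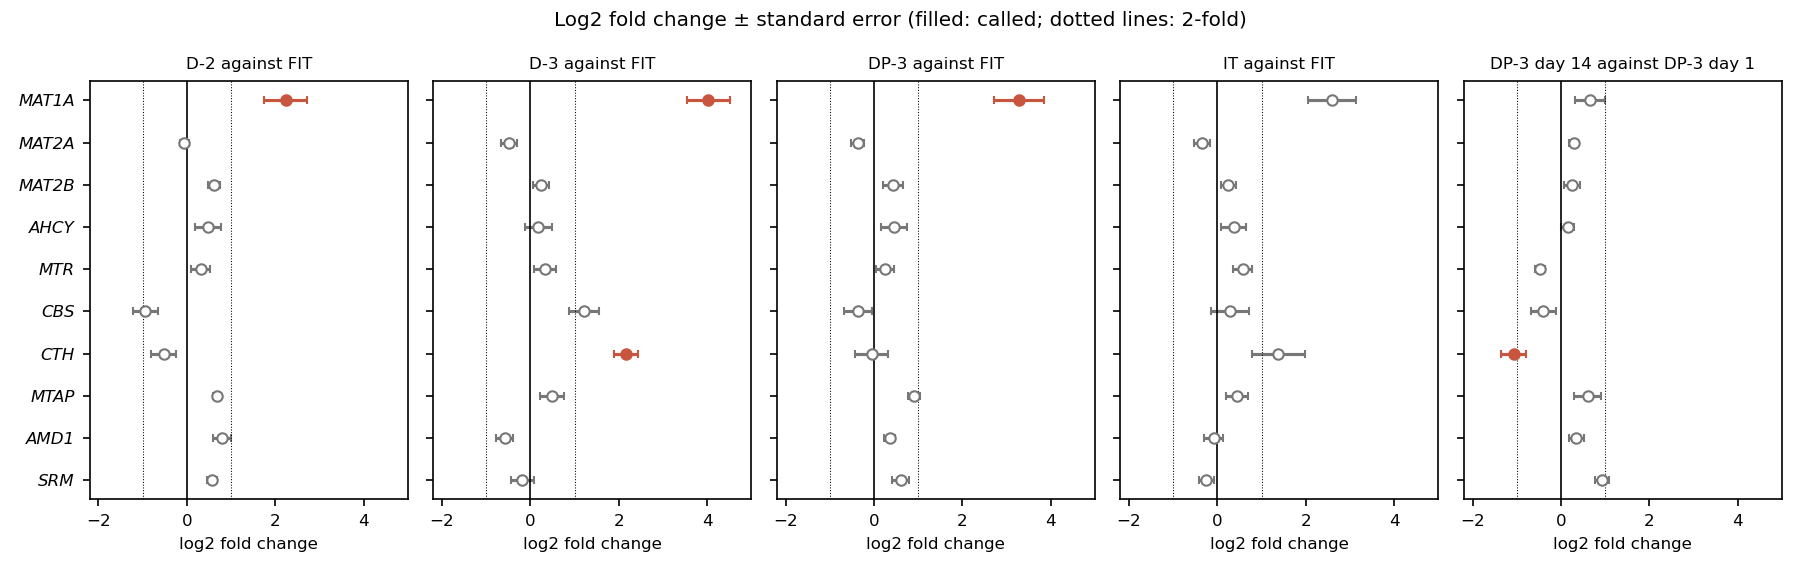
Log2 fold change ± standard error of the 10 enzymes in the 5 comparisons, from edgeR's quasi-likelihood fit of 3 libraries against 3. Filled points were called and dotted lines mark a 2-fold change. MAT1A lay beyond 2-fold in all 4 comparisons with FIT but was not called in IT, and CTH was called higher in D-3 and lower between the days of DP-3.

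MAT1A (ENSG00000151224) encodes the catalytic subunit of the liver form of methionine adenosyltransferase and lies on the minus strand of chromosome 10, from 80271820 to 80289658 on GRCh38. Its FPKM was 0.118, 0.307 and 0.109 in the 3 FIT libraries, where the estimated counts were 35, 91 and 12. The lowest of these is at the limit of detection, in the shallowest library. MAT1A was 1.03, 0.743 and 0.632 FPKM in D-2 and 1.07, 0.899 and 1.47 in IT. It was 3.19, 3.74 and 2.82 in D-3. Every library of D-2, IT and D-3 therefore lay above every FIT library, and all 3 libraries of D-3 lay above all others of the series. In the printed tissue MAT1A was 1.34, 1.31 and 1.24 FPKM on day 1 and 2.34, 0.932 and 1.81 on day 14. The day 14 libraries spread around the tight day 1 values, with 1 below and 2 above them.

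The order of the MAT1A means was D-3 (3.25 ± 0.466), DP-3 (1.69 ± 0.711), DP-3 day 1 (1.3 ± 0.0506), IT (1.15 ± 0.296), D-2 (0.800 ± 0.203) and FIT (0.178 ± 0.112), in FPKM. Neighbours in this order overlapped between libraries, except D-3 with DP-3 and D-2 with FIT. Against FIT the log2 fold change was 4.02 ± 0.484 (SE) for D-3, 3.28 ± 0.564 for DP-3, 2.60 ± 0.544 for IT and 2.23 ± 0.493 in D-2. The p of edgeR's test, adjusted by Benjamini-Hochberg over all genes, was 0.00465 for D-3, 0.021 for DP-3, 0.0149 for D-2 and 0.192 in IT, so MAT1A was called in the first 3. Between day 14 and day 1 of DP-3 the log2 fold change was 0.66 ± 0.336 and the libraries overlapped.

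The call in D-3 held in all 14 other settings run. Of these, the FPKM minimum of 1 was passed through the D-3 libraries alone, so that setting adds no support. In D-2 the call was lost without D-2 replicate 1, where edgeR gave an adjusted p of 0.0548. In DP-3 it was lost without DP-3 replicate 1 (edgeR, adjusted p 0.0732), without DP-3 replicate 3 (0.0606) and without FIT replicate 1 (0.0784), with log2 fold changes of 3.02, 3.21 and 3.01. In IT, DESeq2 gave an adjusted p of 0.000118 and one edgeR fit of all 18 libraries 0.00291. MAT1A is a liver enzyme, and a list of 8 hepatocyte markers summed to 1.31 to 1.71 FPKM in D-3 and 0.454 to 0.576 in FIT. ALB and TTR, which define hepatocytes, were at 0 in every library of both groups.

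MAT2A (ENSG00000168906, chromosome 2, plus strand, 85539168 to 85545281) encodes the activating enzyme of non-liver tissue. It was abundant in every library, at 42.6 to 77.0 FPKM. Its mean was highest in FIT (72.4 ± 7.87) and between 50.7 and 62.2 in the 5 other groups, and each group overlapped the next in that order. Its log2 fold change against FIT was -0.48 ± 0.18 for D-3, -0.37 ± 0.144 for DP-3, -0.35 ± 0.182 for IT and -0.06 ± 0.0985 in D-2, and none was called. Libraries of DP-3 and FIT did not overlap, since DP-3 reached 59.8 FPKM at most and FIT was at least 63.3. The gene GGCX overlaps MAT2A on the opposite strand. The kit marks strand but the strand setting of the counting is not given in the sources used here, so reads of the overlap may be split between them.

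FPKM is per length of gene, so both forms can be set side by side. MAT1A made up 0.26% ± 0.194 of the summed FPKM of MAT1A and MAT2A in FIT, 1.26% ± 0.241 in D-2, 2.11% ± 0.984 in IT, 2.49% ± 0.115 in DP-3 day 1, 3.31% ± 1.60 in DP-3 and 5.79% ± 1.07 in D-3 (SD, n = 3). In D-3 the share was 6.97%, 5.53% and 4.88%, and in FIT 0.153%, 0.483% and 0.142%. The share of MAT1A was thus 6.97% at most, in D-3 replicate 1, and MAT2A was the main form in every library. Over the 18 libraries, which share groups and depth, the log2 levels of MAT1A and MAT2A had a Pearson r of -0.71.

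The promoters of both genes are shown because their base composition differs. RefSeq promoter windows of GRCh38.p14 (250 bases before to 50 after the start) were found for 10 of the 10 enzymes. MAT2B and MTR have 2 such windows and AHCY, CBS and AMD1 have 3. For each enzyme only the window nearest the deposited gene start was searched. The part before the annotated gene starts is printed, 5′ to 3′ on the strand of the gene, with each CpG in capitals. The MAT1A stretch is chr10:80289685-80289908 (224 bases, minus strand) and the MAT2A stretch is chr2:85538918-85539164 (247 bases, plus strand).
MAT1A: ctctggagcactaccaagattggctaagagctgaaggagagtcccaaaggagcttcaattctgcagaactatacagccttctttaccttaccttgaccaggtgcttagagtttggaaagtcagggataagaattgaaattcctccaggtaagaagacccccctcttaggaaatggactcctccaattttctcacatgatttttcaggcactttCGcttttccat
MAT2A: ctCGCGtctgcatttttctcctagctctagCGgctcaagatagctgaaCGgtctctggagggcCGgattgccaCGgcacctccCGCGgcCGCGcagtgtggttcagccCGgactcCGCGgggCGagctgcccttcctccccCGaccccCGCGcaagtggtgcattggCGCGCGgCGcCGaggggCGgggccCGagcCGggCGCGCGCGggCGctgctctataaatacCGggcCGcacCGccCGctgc
The printed MAT1A stretch holds 1 CpG and that of MAT2A 34. In the whole windows of 300 bases the numbers are 3 and 43, and 24.5% of 35116 promoters hold as few as MAT1A while 4.98% hold as many as MAT2A. The files hold no methylation data.

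MAT2B (ENSG00000038274, chromosome 5, plus strand, 163503114 to 163519336) encodes the regulatory subunit that binds the MAT2A enzyme. It was 5.94 to 10.7 FPKM over the 18 libraries, with group means from 7.16 ± 1.22 in FIT to 9.79 ± 0.603 in D-2. The 3 libraries of D-2 (9.13 to 10.3) lay above those of FIT (6.31 to 8.56), with a log2 fold change of 0.61 ± 0.138, which is under 2-fold. Against FIT the other log2 fold changes were 0.43 ± 0.225 in DP-3, 0.25 ± 0.176 in IT and 0.24 ± 0.17 in D-3, with overlapping libraries. Between the days of DP-3 the value was 0.25 ± 0.187 on the counts and -0.05 on log2(FPKM + 0.1).

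AHCY (ENSG00000101444, chromosome 20, minus strand, 34280268 to 34303355) removes S-adenosylhomocysteine, which otherwise blocks methyltransferases. Its group means lay between 36.9 ± 13.1 FPKM in FIT and 50.5 ± 0.409 in DP-3 day 1. The FIT libraries were 22.7, 39.3 and 48.6, and they overlapped every culture of day 14. Log2 fold changes against FIT ran from 0.18 ± 0.306 in D-3 to 0.48 ± 0.3 in D-2, and none was called. Between the days of DP-3 the log2 fold change of AHCY was 0.15 ± 0.152 on the counts and -0.14 on log2(FPKM + 0.1).

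MTR (ENSG00000116984, chromosome 1, plus strand, 236795292 to 236921278) encodes methionine synthase, which rebuilds methionine from homocysteine. It was 5.37, 4.93 and 4.65 FPKM in DP-3 day 1, above every library of the other groups. On day 14 the printed tissue had 3.27, 2.79 and 2.88 FPKM, so the days did not overlap, with a log2 fold change of -0.47 ± 0.105, which is under 2-fold. The group means of day 14 and of FIT ran from 2.72 ± 0.608 in FIT to 4.06 ± 0.259 in IT. The 3 IT libraries (3.85 to 4.35) lay above the FIT libraries (2.33 to 3.42), with a log2 fold change of 0.57 ± 0.213 and no call. The flat, Matrigel and printed cultures of day 14 differed from FIT by 0.25 to 0.32, with overlap.

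CBS (ENSG00000160200, chromosome 21, minus strand, 43053191 to 43076362) makes the first transsulfuration step and joins homocysteine to serine. The file lists a near-identical copy, CBSL, on the same chromosome from 6444869 to 6468040. Of the 150-base windows of CBSL transcripts in GENCODE release 29, 86.8% also occur in transcripts of CBS, so reads of one may have been counted for the other. CBSL took from 0% to 65.3% of the summed FPKM of both, and the share changed within groups: it was 0%, 0% and 48.6% in the 3 D-3 libraries and 60.2%, 3.83% and 33.3% in D-2. CBS alone is therefore uncertain and is given with the sum.

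CBS was 2.65, 4.35 and 2.09 FPKM in D-3, 0.463, 0.642 and 0.648 in D-2, and 0.948, 1.11 and 1.68 in FIT. All D-3 libraries lay above the FIT libraries and all D-2 libraries below them. It was 2.44, 1.40 and 0.760 in IT and 0.636, 1.13 and 0.917 in DP-3, both overlapping FIT. DP-3 day 1 had 0.993, 1.61 and 1.65. Its log2 fold change against FIT was 1.22 ± 0.339 in D-3 (edgeR, adjusted p 0.0634), -0.94 ± 0.283 in D-2 (under 2-fold, but -1.14 and called without FIT replicate 1, edgeR, adjusted p 0.0332), -0.36 ± 0.323 in DP-3 and 0.28 ± 0.435 in IT. Without IT replicate 1 the value in IT was -0.20, so its direction turned.

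The sum of CBS and CBSL was 2.65, 4.35 and 4.06 FPKM in D-3 (3.69 ± 0.909) and 1.54, 1.11 and 1.75 in FIT (1.47 ± 0.324). It was 2.32 ± 0.467 in DP-3 day 1, 1.88 ± 0.863 in IT, 1.3 ± 0.442 in DP-3 and 0.933 ± 0.25 in D-2. D-3 again lay above FIT in all libraries, whereas D-2 now overlapped FIT (0.667 to 1.16 against 1.11 to 1.75). With both counted as 1 gene, a setting chosen after seeing the data, the log2 fold change in D-3 was 1.25 ± 0.26 and was called (edgeR, adjusted p 0.027). In D-2 it was -0.64 ± 0.23 and was not called (edgeR, adjusted p 0.0725). CBS alone was called in D-3 by DESeq2 (adjusted p 0.00706), without a filter on low genes (edgeR, 0.033) and in one fit of all 18 libraries (edgeR, 0.0452).

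**Figure D3:**
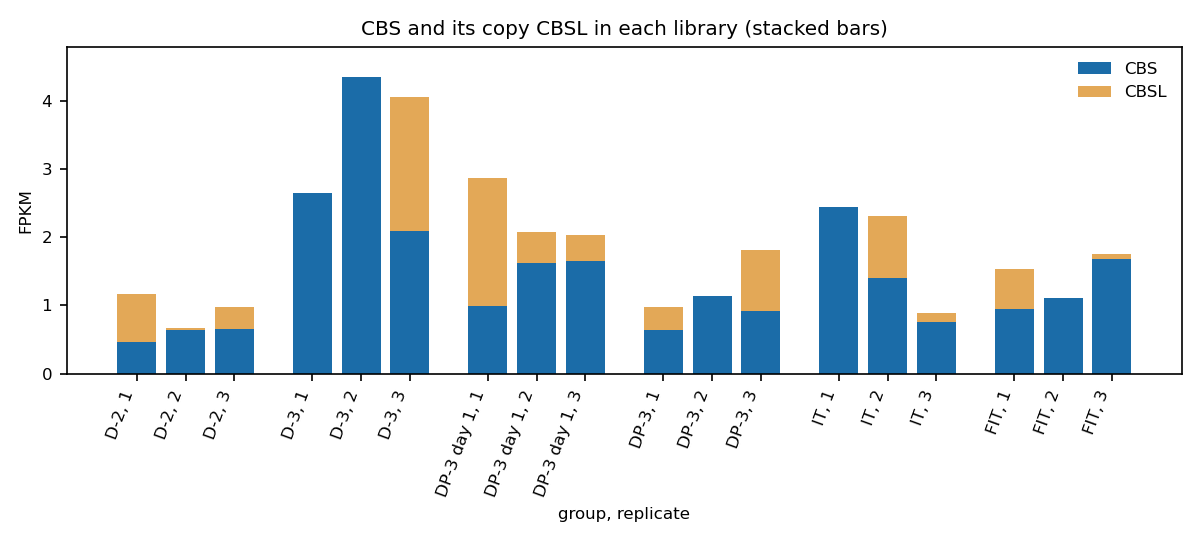
FPKM of CBS (blue) and of its copy CBSL (yellow) stacked for each of the 18 libraries, on a linear axis from 0. The part given to CBSL varied between libraries of 1 group, from 0 to 1.97 FPKM in D-3, while the stacked height was above 2.6 in all 3 D-3 libraries.

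CTH (ENSG00000116761, chromosome 1, plus strand, 70411218 to 70439851) makes the second transsulfuration step and releases cysteine. It was 14.6, 14.5 and 13.2 FPKM in D-3, and 4.17, 2.84 and 2.00 in FIT. D-2 had 1.84, 1.99 and 1.78 FPKM, all just below the lowest FIT library. CTH in IT was 15.8, 2.97 and 4.86, so IT replicate 1 was the highest library of the series while IT replicate 2 lay within the FIT range. The printed tissue had 6.53, 5.93 and 7.58 FPKM on day 1 and 1.67, 3.71 and 2.55 on day 14, without overlap between the days.

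The order of the CTH means was D-3 (14.1 ± 0.796), IT (7.88 ± 6.93), DP-3 day 1 (6.68 ± 0.835), FIT (3.00 ± 1.09), DP-3 (2.65 ± 1.02) and D-2 (1.87 ± 0.104). Of the neighbours in this order, DP-3 day 1 and FIT did not overlap. CTH was called higher in D-3 against FIT, with a log2 fold change of 2.16 ± 0.278 (edgeR, adjusted p 0.00573), and this call held in all 14 other settings. In IT the log2 fold change was 1.38 ± 0.596 (edgeR, adjusted p 0.393), and without IT replicate 1 it was 0.41. In D-2 it was -0.53 ± 0.285 and in DP-3 -0.05 ± 0.37, neither called.

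CTH was called lower in DP-3 on day 14 than on day 1, by a log2 fold change of -1.07 ± 0.282 (edgeR, adjusted p 0.0353). This call was lost without DP-3 day 1 replicate 1, 2 or 3 (edgeR, adjusted p 0.0877, 0.0752 and 0.108) and without DP-3 replicate 3 (0.0699). Without DP-3 replicate 1 the log2 fold change was -0.82, under 2-fold. It was also lost in one fit of all 18 libraries (edgeR, adjusted p 0.113). CBS had a log2 fold change of -0.40 ± 0.285 in the same comparison and was not called.

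The CTH promoter is shown as that of the enzyme with the second widest span, with each CpG in capitals. The stretch is chr1:70411018-70411217 (200 bases, plus strand).
CTH: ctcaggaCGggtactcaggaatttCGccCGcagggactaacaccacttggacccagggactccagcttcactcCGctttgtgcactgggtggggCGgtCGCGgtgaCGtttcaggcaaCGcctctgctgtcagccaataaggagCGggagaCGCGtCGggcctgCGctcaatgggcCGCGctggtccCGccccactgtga
It holds 17 CpG, and the window of 300 bases holds 26, which 30.1% of promoters reach. The core of the amino acid response element, searched as TGATGNAA on both strands, was in 0 of the 10 windows of the enzymes and in 3.62% of all promoters. That says only that these letters are not in these windows.

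CBS and CTH levels went together over the 18 libraries, with a Pearson r of 0.82 on the log2 scale, or 0.78 for the sum of CBS and CBSL, and the libraries share groups and depth. Among 12384 genes expressed over the 18 libraries, the 3 most like CTH were TRIB3 (r = 0.97), SESN2 (0.96) and AP005136 (0.94). TRIB3, a pseudokinase, and SESN2, a sensor of leucine, are known to be induced when cells lack amino acids. TRIB3 was 46.6, 30.6 and 31.0 FPKM in D-3 and 8.32, 7.79 and 4.11 in FIT. It was 30.6, 7.12 and 9.24 in IT, so the same IT library was high as in CTH. AP005136 (ENSG00000286975) was 8.96, 4.8 and 6.49 FPKM in D-3 and 1.31, 0.832 and 1.04 in FIT. The genes most like CBS were ALDH1L2 (r = 0.92), a mitochondrial folate enzyme, INHBE (0.91), an activin subunit, and NIBAN1 (0.90). INHBE was 28.2, 6.35 and 4.69 FPKM in IT. The genes most like MAT1A were ABI3BP (r = 0.93), an extracellular matrix protein, CHST2 (0.93), a sulfotransferase, and MMP3 (0.91), a matrix protease. ABI3BP was 0.115 ± 0.0205 FPKM in FIT and 3.54 ± 0.744 in D-3.

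**Figure D4:**
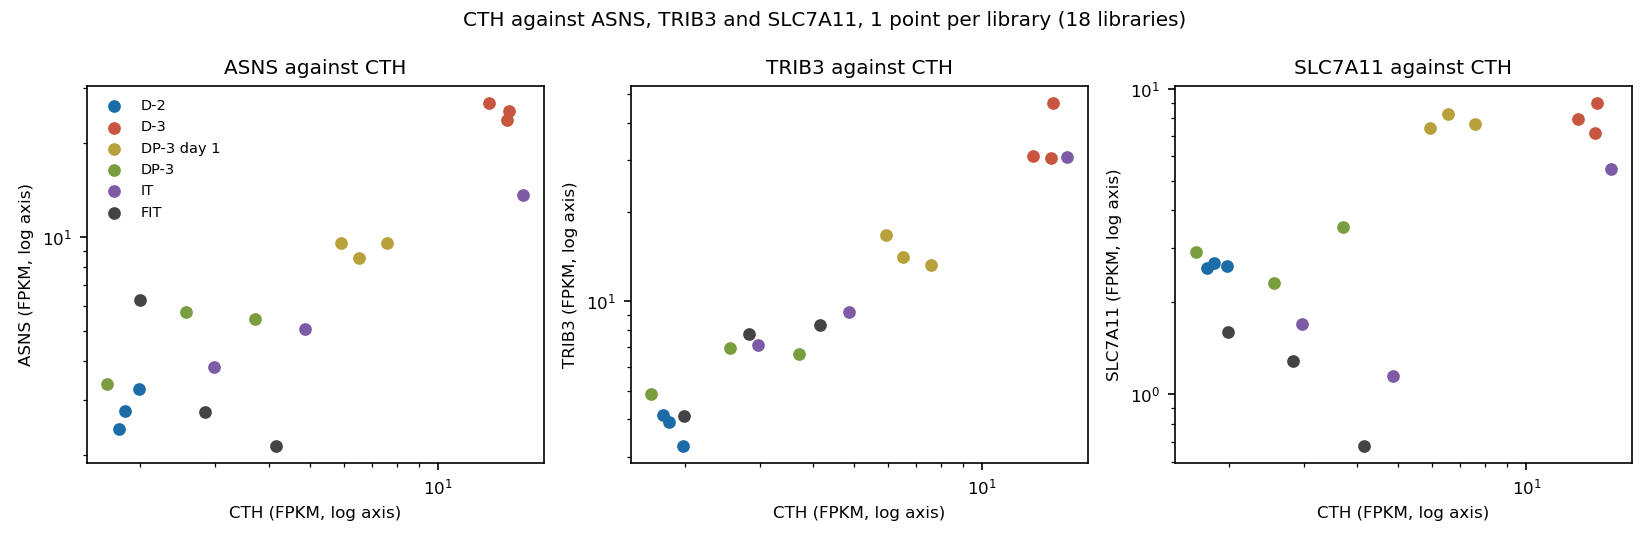
FPKM of ASNS, TRIB3 and SLC7A11 against CTH, both axes logarithmic, with 1 point per library (18 libraries) coloured by group. The 3 D-3 libraries and IT replicate 1 have the highest CTH values in each panel, and the other 2 IT libraries lie to the left, at 2.97 and 4.86 FPKM of CTH.

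The side branches moved less. MTAP (ENSG00000099810, chromosome 9, plus strand, 21802636 to 21937651) splits methylthioadenosine, the by-product of polyamine synthesis. Its FPKM was 3.21, 3.34 and 3.44 in FIT, 4.92, 5.01 and 4.49 in D-2 and 5.82, 6.42 and 5.04 in DP-3, so both cultures lay above FIT. Its log2 fold change was 0.91 ± 0.131 in DP-3 and 0.68 ± 0.0953 in D-2, both under 2-fold. D-3 (7.16, 4.09 and 3.31) and DP-3 day 1 (3.42, 7.07 and 3.16) each had 1 library well above the other 2. Between the days of DP-3 the log2 fold change was 0.60 ± 0.299, and without DP-3 day 1 replicate 2 it was 1.06 and was called (edgeR, adjusted p 0.0159). Several shorter genes and pseudogenes overlap MTAP on both strands, and how their reads were divided is not given in the sources used here.

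AMD1 (ENSG00000123505, chromosome 6, plus strand, 110874770 to 110898879) decarboxylates SAM and so commits it to polyamines. It was 22.3, 20.5 and 12.5 FPKM in D-2 and 10.4, 7.70 and 6.57 in D-3. FIT had 11.3, 11.3 and 12.9. All D-3 libraries lay below FIT, and D-2 and FIT overlapped through D-2 replicate 3. The log2 fold change was -0.58 ± 0.192 in D-3, 0.79 ± 0.209 in D-2, 0.35 ± 0.126 in DP-3 and -0.08 ± 0.221 in IT. None was called with all libraries. Without D-2 replicate 3 the value in D-2 was 1.0 and was called (edgeR, adjusted p 0.0124).

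SRM (ENSG00000116649, chromosome 1, minus strand, 11054584 to 11060018) makes spermidine from putrescine. It was 84.3, 82.3 and 78.1 FPKM in D-2 and 83.8, 70.8 and 100.3 in DP-3, all above FIT (54.5, 67.8 and 60.5). D-3 spread widely, with 41.1, 79 and 48.4. DP-3 day 1 had 55.6, 52.0 and 55.0, below every DP-3 library of day 14. The log2 fold change between the days was 0.92 ± 0.154, just under 2-fold, and 1.05 without DP-3 replicate 2, where it was called (edgeR, adjusted p 0.00739). Against FIT it was 0.61 ± 0.195 in DP-3 and 0.57 ± 0.122 in D-2, under 2-fold in both.

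The SRM promoter is shown because it is the one of the 10 windows with an E-box, the letters CACGTG that MYC and related factors are known to bind. The stretch is chr1:11060025-11060268 (244 bases, minus strand), with the E-box in capitals.
SRM: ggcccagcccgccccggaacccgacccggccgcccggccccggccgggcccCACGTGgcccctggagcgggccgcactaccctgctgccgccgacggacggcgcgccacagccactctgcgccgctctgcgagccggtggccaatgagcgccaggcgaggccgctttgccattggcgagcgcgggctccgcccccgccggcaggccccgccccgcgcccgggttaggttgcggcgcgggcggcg
The E-box starts at -199 relative to the RefSeq start and reads the same on both strands, and 7.26% of the 35116 promoters hold one. The whole window holds 48 CpG, which 1.98% of promoters reach. A match is a description of the letters, and no binding was measured.

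The neighbouring steps were tested over all genes. Of the 73 neighbours tested in D-2 against FIT, 5 were called higher (3.83% of all genes) and 8 lower (10.8%). In D-3, 9 were called higher (4.29%) and 1 lower (2.17%), and in DP-3, 2 higher (1.66%) and 4 lower (3.16%). In IT 0 were called (0.0%). There, 8 of the 73 had an unadjusted p below 0.05 in edgeR's test, as had 2693 of all 21183 genes tested. DESeq2 called 2 of the 73 in IT and 661 of all genes. In DP-3 day 14 against DP-3 day 1, 0 were called higher (1.81%) and 6 lower (5.76%).

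Of the 10 genes of serine and amino acid supply, 6 were called higher in D-3 than in FIT (4.29% of all genes) and 0 lower (2.17%), and 8 did not overlap (32.4%). Their median log2 fold change was 1.24 and that of all genes tested 0.02. The list was chosen with results of these libraries known, and only 2 of the 10 were called without D-3 replicate 3 and 4 without D-3 replicate 1 or FIT replicate 2. ASNS, asparagine synthetase, was 25.3, 23.8 and 26.9 FPKM in D-3 and 2.13, 2.74 and 6.28 in FIT, and rose by a log2 fold change of 2.72 ± 0.371 (edgeR, adjusted p 0.00687). SLC7A11, the subunit of the transporter that brings in cystine, was 8.96, 7.13 and 7.98 FPKM in D-3 and 0.676, 1.29 and 1.60 in FIT, and rose by 2.70 ± 0.312 (edgeR, adjusted p 0.00396). Both calls held in all 14 other settings. PHGDH and PSAT1, which start serine synthesis and so the serine that CBS uses, rose by 1.15 ± 0.183 and 1.5 ± 0.247 (edgeR, adjusted p 0.0118 and 0.0129). SLC3A2 and SLC7A5, the chains of a carrier that takes up methionine and other large amino acids, rose by 1.29 ± 0.256 and 1.18 ± 0.225 (edgeR, adjusted p 0.0228 and 0.0205). ATF4, the transcription factor known to drive many of these genes, was 157.3, 24.9 and 40.9 FPKM in D-3 and 21.9, 27.8 and 15.1 in FIT and was not called.

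Other neighbours called in D-3 were MTHFD2, a mitochondrial folate enzyme (1.24 ± 0.139, edgeR, adjusted p 0.00361), FTCD, a folate enzyme of histidine breakdown (2.15 ± 0.498, 0.0379), and IL4I1, an amino acid oxidase (2.20 ± 0.472, 0.0302), all higher. TCN2, a vitamin B12 carrier, was lower (-1.32 ± 0.264, 0.0233). Single libraries mattered for this list: 3 neighbours were called on leaving out D-3 replicate 3, 5 on leaving out D-3 replicate 1 and 6 on leaving out FIT replicate 2. PSAT1 lost its call without D-3 replicate 3 (edgeR, adjusted p 0.0649), PHGDH without D-3 replicate 1 or 3 (0.0525 to 0.0544) and SLC3A2 without either of these or FIT replicate 2 (0.0514 to 0.0847). SLC7A5 lost it when D-3 replicate 2 or 3 or FIT replicate 1 or 2 was left out, with log2 fold changes of 0.93 to 1.23 (edgeR, adjusted p 0.0261 to 0.0796). MTHFD2 kept its call in all 14 other settings. IL4I1 lost it without D-3 replicate 1 or 3 or FIT replicate 1 (0.0757 to 0.111), and FTCD and TCN2 without these or FIT replicate 2 (0.103 to 0.146 and 0.0679 to 0.114).

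In D-2, SAT1, which acetylates spermidine and spermine for export, had 1.79, 1.5 and 1.86 FPKM against 16.3, 11.6 and 10.2 in FIT. It fell by a log2 fold change of -2.72 ± 0.208 (edgeR, adjusted p 0.00145). Also lower were GNMT, a liver enzyme that uses up SAM (-2.27 ± 0.478, edgeR, adjusted p 0.0128), CSAD of taurine synthesis (-1.76 ± 0.241, 0.00363), AZIN2, an antizyme inhibitor (-1.68 ± 0.291, 0.00696), TCN2 (-1.66 ± 0.233, 0.0038), FTCD (-2.34 ± 0.588, 0.0229), ALDH1L1 of folate metabolism (-1.19 ± 0.255, 0.0135) and CHAC1, which breaks glutathione down (-1.38 ± 0.318, 0.017). MTRR, which reactivates MTR, was higher (1.03 ± 0.174, edgeR, adjusted p 0.00631), as were GCLM of glutathione synthesis (1.37 ± 0.251, 0.00839), CHAC2, a relative of CHAC1 (1.26 ± 0.18, 0.00393), SLC7A11 (1.3 ± 0.301, 0.0175) and PSPH of serine synthesis (1.07 ± 0.324, 0.0436). PSPH lost its call without any 1 of the D-2 libraries or FIT replicate 1 or 2 (edgeR, adjusted p 0.0832 to 0.128). SLC7A11 lost it when replicate 1 or 2 of D-2 or replicate 1 of FIT was left out, and MTRR without FIT replicate 1 or 2, with log2 fold changes of 0.98 to 1.3 and 0.85 to 0.98. In all, 8 neighbours were called without D-2 replicate 1, where ALDH1L1 (edgeR, adjusted p 0.0537), FTCD and CHAC1 were among those that lost their call. FTCD also lost it without D-2 replicate 2 or 3 (0.054 to 0.0704 over the 3) and CHAC1 without D-2 replicate 2 (0.0589 to 0.0645 over both). SAT1, CSAD, TCN2 and GCLM kept their calls in all 14 other settings. FTCD was below 0.1 FPKM in all D-2 libraries (0.0772, 0.0319 and 0.0637) and was tested only through FIT (0.321, 0.174 and 0.541). Nothing is read from its call in D-2.

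In DP-3 against FIT, SAT1 (-1.98 ± 0.209, edgeR, adjusted p 0.00695), AZIN2 (-1.91 ± 0.311, 0.0187), ALDH1L1 (-1.60 ± 0.324, 0.0303) and TCN2 (-1.41 ± 0.271, 0.0278) fell, while SLC7A11 (1.41 ± 0.324, 0.0399) and CHAC2 (1.01 ± 0.23, 0.0392) rose. SAT1 kept its call in all 14 other settings. The count of 6 went to 1 without DP-3 replicate 1, DP-3 replicate 3 or FIT replicate 1, and to 2 without DP-3 replicate 2. SLC7A11, AZIN2, ALDH1L1, TCN2 and CHAC2 each lost their call without any 1 DP-3 library or FIT replicate 1, SLC7A11, ALDH1L1, TCN2 and CHAC2 also without FIT replicate 2 and CHAC2 also without FIT replicate 3 (edgeR, adjusted p 0.0504 to 0.124). SAT1 and AZIN2 were the 2 of 15 polyamine genes tested that were called lower in D-2, where 10.8% of all genes were, and also in DP-3, where 3.16% were, and nothing is read from these counts. ODC1, the first enzyme of that list, was not called. In D-3 no gene of the polyamine list was called, and SAT1 was 13.7, 9.06 and 12.5 FPKM.

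Between day 1 and day 14 of DP-3, 3 of the 10 genes of serine and amino acid supply were called lower (5.76% of all genes) and 0 higher (1.81%), and 8 did not overlap (45.2%). SLC3A2 went from 73.0, 87.9 and 89.7 FPKM on day 1 to 33.0, 30.7 and 28.0 on day 14, a log2 fold change of -1.18 ± 0.107 (edgeR, adjusted p 0.00182). SLC7A11 fell by -1.16 ± 0.135 (0.00281) and SLC43A2, another carrier of large amino acids, by -1.18 ± 0.231 (0.0133), by the same edgeR test. ALDH1L1, AZIN2 and CSAD also fell, by -1.97 ± 0.257, -1.89 ± 0.19 and -1.12 ± 0.162 (edgeR, adjusted p 0.00359, 0.0021 and 0.00499). The median of the list of supply genes was -0.52 and that of all genes -0.06. SLC3A2 kept its call in all 14 other settings, and SLC43A2 lost it without DP-3 day 1 replicate 3 (edgeR, adjusted p 0.0508). SLC7A11 lost its call in one fit of all 18 libraries. SLC43A2, AZIN2, CSAD and ALDH1L1 lost theirs with limma on log2(FPKM + 1).

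**Figure D5:**
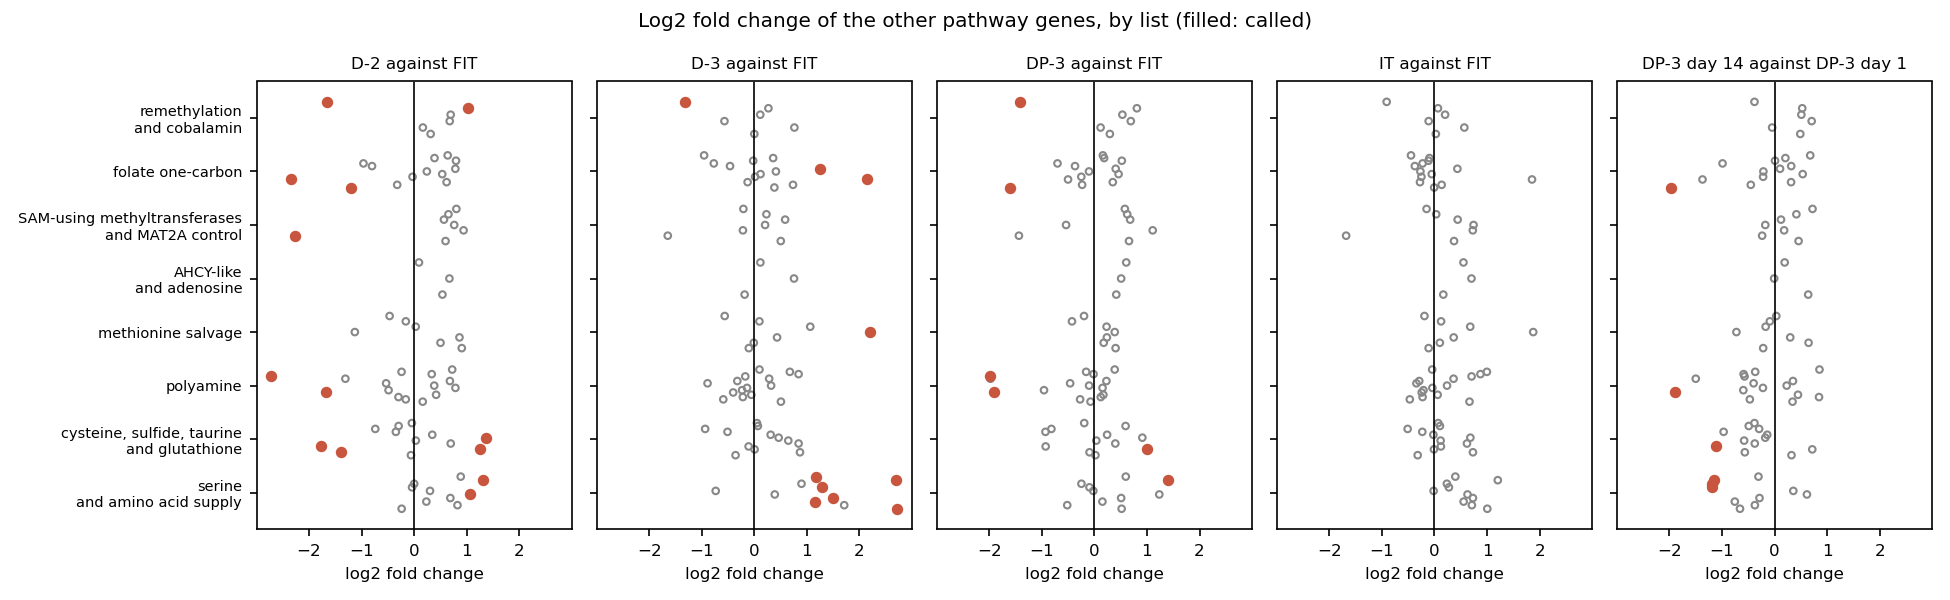
Log2 fold change of the pathway neighbours tested, 1 point per gene, in 8 lists (rows) and 5 comparisons (panels). Filled points were called by edgeR's quasi-likelihood test. The bottom row, serine and amino acid supply, holds 6 filled points on the right in D-3 and 3 on the left between the days of DP-3.

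In IT the libraries did not rank alike for all supply genes. IT replicate 1 was the highest for ASNS (13.6, 3.82 and 5.05 FPKM), PSAT1 (86.7, 36.6 and 29.8), SLC7A11 (5.47, 1.69 and 1.15), SLC7A5 (76.5, 32.8 and 26.4), PHGDH, PSPH and SLC38A2, as it was for CTH. IT replicate 3 was the highest for SLC3A2 (43.2, 27.2 and 58.4), SLC43A2 (1.08, 0.713 and 1.95) and ATF4 (22.5, 18 and 65.8). The median log2 fold change of the 10 supply genes in IT was 0.59 against 0.01 over all genes, and 0 of the 10 were called or free of overlap with FIT.

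Markers of other cells were read in the same libraries. The sum of 8 fibroblast markers was 35.9 to 41.6 FPKM in FIT, 10.7 to 13 in D-3, 28.4 to 31.4 in D-2, 18.3 to 18.7 in DP-3 day 1, 19.8 to 21.8 in DP-3 and 19.8 to 33.2 in IT, with none of the 8 at 0 in a whole group. In D-2, D-3 and the printed tissue only the line was grown, so there the sum is expression by the cultured cells. The sum was lowest in D-3, where the means of MAT1A and CTH were highest. For CTH this order did not hold elsewhere: FIT had the highest sum and a CTH mean of 3.00 FPKM, above DP-3 (2.65) and D-2 (1.87). The part of this list in those values was not tested. The sum of 8 adipocyte markers was higher in D-3 (4.33 to 7.77 FPKM) than in FIT (0.635 to 1.44) and D-2 (0.691 to 0.785), and reached 9.29 in 1 library of DP-3. FABP4, a fatty acid carrier, was 2.19 to 3.20 in D-3 and 0 in FIT, and PLIN4, a lipid droplet protein, 1.40 to 3.63 and 0.14 to 0.401. ADIPOQ, LEP, FABP4 and LPL were at 0 in all FIT libraries, but ADIPOQ, which defines adipocytes, was also 0.0112 FPKM at most in D-3, and the part of this list in the MAT1A and CTH values was not tested. Endothelial markers (8 genes) summed to 1.47 to 2.82 FPKM in D-3 and 5.53 to 9.39 in FIT, skeletal muscle markers (15) to 1.42 to 2.15 and 1.60 to 5.84, and red blood cell markers (6) to 0.867 at most in any library. Macrophage markers (8) summed to 25.3 to 61.9 in FIT, 65.6 to 90.9 in D-3 and 47.6 to 50.4 in D-2, a culture of the line alone. Such a sum is therefore no measure of macrophages here. AIF1 of this list was at 0 in FIT, D-2, DP-3 day 1 and DP-3. Keratinocyte markers (7 of 8 listed in the file) summed to 21.8 to 41.7 in FIT and 24 to 26.6 in D-3. Defining markers of the osteoblast lineage, to which the labelled line belongs, were absent or near 0. ALPL, the alkaline phosphatase for which Saos-2 is known, was 0.148 FPKM at most in any library, SP7 0.0949 at most and IBSP 0.0802 at most, with IBSP at 0 in every library outside DP-3 day 1. The values of these markers thus go against the label, and the identity of the line was not tested. The list of 10 summed to 5.60 to 16.8 FPKM in the cultures and 24.1 to 25.9 in FIT, where COL1A1, which fibroblasts also express, made up 19.6 to 21.0.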

How the data were processed

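RNA of 18 libraries was sequenced after oligo(dT) selection with a dUTP kit. Per the labels, reads were processed with cutadapt 1.9, HISAT2 2.0.4 and StringTie 1.3.4d, and DESeq2 and edgeR are also named. The genome build and annotation are not given in the sources used here. The deposited FPKM are the authors' StringTie values, scaled by gene length and library total. The deposited estimated counts are whole numbers made by the authors in a way that is not given in the sources used here. Of 212148 low counts (1 to 40), 35.0% were multiples of 4, against 25% of whole numbers, so they were treated as estimates. The table has 0 unused columns with values per sample and no columns of the authors' comparisons.

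The members and lists were chosen with earlier results of these data known. Groups and replicate numbers came from the labels. Tests covered genes that reached 0.1 FPKM in 3 or more of the 6 libraries compared, and were run with edgeR 4.0.16 in R 4.3.3 (TMM scaling, estimateDisp, glmQLFit, glmQLFTest). The standard error is the size of the log2 fold change over the root of the test's F. The limit of detection of 12 counts was 0.152 to 0.506 CPM. None of the 153 pairs of libraries held identical estimated counts. Alternatives were DESeq2 1.42.0, limma 3.58.1 on log2(FPKM + 0.1) and log2(FPKM + 1), median-of-ratios scaling, an FPKM minimum of 1, no filter, one fit of all 18 libraries, a block for the replicate number, and leaving out single libraries. Counting CBS and CBSL as 1 gene was added after seeing the data. The code was tested on simulated data.

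All 10 enzymes are described. Named neighbours are, in each comparison, those called with the largest change (up to 5 in each direction) with a mean of at least 1 FPKM in a group and without overlap of libraries. Other neighbours are named as members of a list described, and were chosen after their values were seen. Likeness is Pearson's r of log2(FPKM + 0.1) over 18 libraries, for the 3 enzymes of widest span. Positions were taken from the deposited table and overlap GENCODE release 29 on GRCh38, and promoters came from RefSeq. Tables and figures were made with Python 3.11.15, pandas 2.3.3, numpy 2.4.6 and matplotlib 3.10.9.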

Additional observations from a re-analysis of the deposited data

Results flagged for a closer look

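In 3 enzymes all libraries of one culture lay above FIT and all libraries of another lay below it. The difference between the cultures was not tested in any of them. CTH was above FIT in all 3 libraries of D-3 and below it in all 3 of D-2, and its mean FPKM was 7.53 times as high in D-3 as in D-2. The margin in D-2 was slight: its highest library had 1.99 FPKM and FIT replicate 3, the shallowest library, 2.00. CBS showed the same, with a ratio of 5.19, but for the sum of CBS and CBSL the D-2 libraries overlapped FIT. AMD1 was above FIT in all 3 libraries of DP-3 and below it in all 3 of D-3, with a mean FPKM 1.68 times as high in DP-3 as in D-3.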

How the results depend on the processing

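Among the log2 fold changes of the 10 enzymes, 673 of 701 values under other settings kept the side of the call, 13 lost a call and 10 gained one. The other 5, without a call, changed sign and moved by more than their error. The 673 include values of the same sign that moved by more than their error. MAT1A in IT, for example, was 2.60 ± 0.544 in the main fit and 0.86 at the lowest. None of the called values changed sign. The number of enzymes called in D-2 went from 1 to 0 with limma on log2(FPKM + 1) and with an FPKM minimum of 1, where MAT1A was too low to be tested. In DP-3 it went from 1 to 0 with an FPKM minimum of 1. In IT it went from 0 to 1 with DESeq2 and with one fit of all 18 libraries, and between the days of DP-3 from 1 to 0 with that fit. Leaving out 1 library gave 0 to 2 enzymes called for D-2, 2 for D-3, 0 to 1 for DP-3, 0 for IT and 0 to 2 between the days.

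The number of pathway neighbours called in D-2 went from 13 to 5 with limma on log2(FPKM + 1) and to 7 with an FPKM minimum of 1. In DP-3 it went from 6 to 10 with DESeq2 and to 2 with limma on log2(FPKM + 1). In IT it went from 0 to 2 with DESeq2 and to 1 with one fit of all 18 libraries, and between the days from 6 to 2 with limma on log2(FPKM + 1). Leaving out 1 library gave 8 to 13 for D-2, 3 to 11 for D-3, 1 to 9 for DP-3, 0 for IT and 6 to 8 between the days. Where the filter or the pseudocount works on low genes the change follows from its construction, and otherwise the cause was not tested.

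Samples of the same number did not deviate together over all genes tested (r from -0.044 to 0.041). Such an r cannot show whether they shared an animal, which the labels do not say. With the replicate number as a block, 1 enzyme was called for D-2, 2 for D-3, 0 for DP-3, 0 for IT and 0 between the days, and 13, 10, 1, 0 and 7 neighbours were called. The enzyme calls lost under the block were MAT1A in DP-3 (edgeR, adjusted p 0.0748) and CTH between the days (0.0559). The total count of FIT replicate 3, 23721666, limits what can be seen of low genes such as MAT1A there.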
